A study of Mus musculus with 15 samples.

Results

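The genes described here are the cytosolic ribosomal protein genes of the mouse kidney, followed one by one and transcript by transcript through angiotensin II infusion and Qingda granule treatment. Members were the protein-coding genes of GENCODE release M21 whose symbols begin with Rpl or Rps and a number, together with Rplp0, Rplp1, Rplp2 and Rpsa, and without the Rps6k kinases and symbols that carry -ps. In all, 86 genes matched, and 83 of them had a listed transcript, out of 14426 annotated genes with a listed transcript in the series. The other 3, Rpl7a, Rpl10l and Rpl39l, were not analysed here. One of the 83, Rps19bp1, encodes a protein that binds Rps19 rather than a ribosomal protein, and it was kept apart in the counts by subunit. All 15 files shared 337 transcripts of the 83 genes, of which 176 were protein-coding and 161 were non-coding. The non-coding ones were 114 retained-intron transcripts, 34 processed transcripts and 13 nonsense-mediated decay transcripts.

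The kidneys came from WT C57BL/6 male mice, bought at an age of 8 weeks and given a week to adapt, with 5 mice in each of 3 groups. Control mice received saline from subcutaneous osmotic pumps and water by gavage. AngII mice were infused with angiotensin II at 500 ng/kg/min for 28 days and had water by gavage. AngII+QDG mice had the same infusion and received Qingda granule (QDG), a formula of Chinese medicinal herbs, by gavage at 1.145 g/kg/day. No group received QDG without angiotensin II. The tissue was bulk renal tissue, so fewer cells of a type and less RNA per cell cannot be told apart.

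Ribosomal proteins form the ribosome together with the ribosomal RNAs. The small subunit, built with the Rps proteins, reads the mRNA, and the large subunit, built with the Rpl proteins, joins the amino acids. Each protein is needed in about equal numbers, and their mRNAs belong to the TOP class, which starts with a C followed by a run of pyrimidines and is translated under the control of mTORC1 and Larp1. In the kidney, as in other tissues, these mRNAs are abundant and their genes have many processed copies elsewhere in the genome, so reads of a parent gene and of its copies are easily confused.

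The deposited values were FPKM, which scales reads to transcript length and library size. The depth implied by these values was 75047000 to 81329500 fragments per mouse in Control, 70697650 to 79291950 in AngII and 68922850 to 76147000 in AngII+QDG. Of the proximal tubule markers, Slc34a1 lay at 1923 to 3065 FPKM with group means of 2019, 2499.6 and 2249.7 in Control, AngII and AngII+QDG, Kap at 1557 to 13570.4 FPKM with means of 6639, 2677 and 6839.9, Lrp2 at 188 to 237 FPKM and Slc5a2 at 169 to 301 FPKM. The part of these markers in the values below was not tested. Umod of the thick ascending limb lay at 695 to 1308 FPKM. The leukocyte genes Ptprc and Adgre1 did not exceed 1.90 and 3.00 FPKM, the adipocyte gene Adipoq 7.69 FPKM and the adrenal gene Star 1.45 FPKM, whereas the globin gene Hbb-bs lay at 174 to 1059 FPKM with group means of 382, 520.1 and 741 in Control, AngII and AngII+QDG. Transcripts of the mitochondrial genome made up 18.5% to 20.7% of the summed FPKM in Control, 15.4% to 16.0% in AngII and 16.9% to 19.8% in AngII+QDG. Since FPKM is a share of the library, this difference between Control and AngII moves with the values below, and its part in them was not tested.

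The levels of the members were compared first. For each gene the FPKM of its protein-coding transcripts were added up, which gave a coding sum. All 83 coding sums passed the filter of at least 1 FPKM in at least 5 mice. Averaged over the 15 mice, the highest was Rplp1, a stalk protein that helps recruit elongation factors, with 649 FPKM. It was followed by its partner Rplp0 (533 FPKM), Rpl13 (429), Rpl26 (385), Rps2 (381) and Rpl41 (366). The lowest were Rpl3l, a striated muscle form of Rpl3, with 2.67 FPKM, and Rpl21 with 5.94 FPKM, then Rps19bp1 with 14.6 FPKM. Most members were steady between mice of one group. The coefficient of variation (CV, the SD within groups divided by the mean) had a median of 12.4% for the 83 coding sums and of 19.9% for all coding sums kept.

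Added up, the protein-coding transcripts of the members summed to 13401 to 14581 FPKM in Control, 13813 to 16908 FPKM in AngII and 13563 to 16041 FPKM in AngII+QDG. These ranges overlapped in all 3 groups. As a share of the summed FPKM they made up 2.55% ± 0.120 (SD, n = 5) in Control, 2.87% ± 0.205 in AngII and 2.70% ± 0.142 in AngII+QDG. With the mitochondrial transcripts left out of the total, the shares were 3.17% ± 0.133, 3.41% ± 0.251 and 3.30% ± 0.177. The non-coding transcripts of the members contributed 6.01% to 9.46% of the FPKM of the family.

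The comparison of AngII vs. Control asked which transcripts the infusion changed. In AngII, 9 of 83 members had a higher coding sum at an adjusted p under 0.05, and 0 had a lower one. These were Rps16, Rps19, Rps23 and Rps29 of the small subunit and Rpl15, Rpl28, Rpl31, Rpl36 and the stalk gene Rplp2 of the large subunit. Their log2 fold changes ran from 0.30 to 0.51, so each rose by less than 2-fold. Among all 10806 coding sums tested with limma, 3.01% were called higher and 0.768% lower, against 10.8% and 0 of the members. At an unadjusted p under 0.05, 23 of 83 members were higher (27.7%, against 14.4% of all) and 0 were lower (against 5.33% of all). In 16 of 83 every AngII mouse lay above every Control mouse, where this held for 5.11% of all coding sums, and in 0 every AngII mouse lay below, where this held for 1.61%. The median log2 fold change was 0.14 over the members and 0.06 over all coding sums. The count of 9 rested in part on single mice, since it was 4 without Control replicate 1, 5 without Control replicate 3 and 5 without AngII replicate 5.

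Rps16, which lies close to the site where the ribosome reads the codon, is at chr7:28350652-28353155 (plus strand, GRCm38). Its coding sum was 99.3, 91.9, 104, 108 and 99.6 FPKM in the 5 Control mice, 168, 141, 129, 139 and 143 in the AngII mice and 134, 127, 98.7, 124 and 115 in the AngII+QDG mice. All AngII mice were above all Control mice, while the AngII+QDG mice spanned the gap and overlapped with both. The log2 fold change was 0.51 in AngII vs. Control (standard error 0.08, adjusted p = 0.00957 from limma) and −0.26 in AngII+QDG vs. AngII (standard error 0.08, adjusted p = 0.13). Rps16 has a single protein-coding transcript in the files, Rps16-201, which gave the same log2 fold change with an adjusted p of 0.021 among transcripts. With the retained-intron transcripts Rps16-202 and Rps16-203 added, the difference from Control was smaller, with a log2 fold change of 0.31 (adjusted p = 0.038).

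Rps19 (chr7:24884371-24889806, plus strand), the gene most often mutated in Diamond-Blackfan anemia, had 134, 159, 168, 154 and 159.7 FPKM in Control, 227, 222, 198, 231 and 202 FPKM in AngII and 198, 159.8, 181, 211 and 167 FPKM in AngII+QDG. The Control and AngII mice did not overlap, and the AngII+QDG mice reached into both ranges. The rise in AngII was 0.48 on the log2 scale (standard error 0.08, adjusted p = 0.00979 from limma). Its sum is spread over several coding transcripts. One of these, Rps19-203, was at 34.9 ± 17.9 FPKM (SD, n = 5) in Control, 70.6 ± 16.6 in AngII and 72.3 ± 21.7 in AngII+QDG, with an adjusted p of 0.107 in AngII vs. Control.

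Rps29 (chr12:69157722-69159186, minus strand), a zinc-binding protein of the head of the small subunit, had 162, 185, 176, 204 and 158 FPKM in Control and 264, 247, 227, 259.9 and 254 FPKM in AngII. In AngII+QDG it had 266, 197, 174, 253 and 204 FPKM, and its range overlapped with both of the other groups. AngII exceeded Control by 0.50 on the log2 scale (standard error 0.11, limma adjusted p = 0.0228), and it was called in 11 of 15 fits with 1 mouse left out. Rps23 (chr13:90922958-90924950, plus strand), a protein of the decoding centre, had 159 to 187 FPKM in Control, 202 to 224 FPKM in AngII and 165 to 218 FPKM in AngII+QDG. AngII exceeded Control by 0.33 on the log2 scale (standard error 0.08), and its limma adjusted p of 0.0317 was the largest among the 9. It was not called with median scaling (adjusted p = 0.0577) and was called in 8 of 15 fits with 1 mouse left out.

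Rplp2 (chr7:141447370-141451585, plus strand), 1 of the 3 stalk genes, had 85.3, 98.2, 74.4, 86.3 and 76.5 FPKM in Control, 119, 111, 103, 114 and 125 FPKM in AngII and 97.9, 86.2, 86.9, 103 and 88.1 FPKM in AngII+QDG. Control and AngII did not overlap. The difference was 0.44 on the log2 scale (standard error 0.08, limma adjusted p = 0.0127). The other stalk genes were not called. Rplp1 had 602 ± 39.1 FPKM in Control and 703 ± 42.2 FPKM in AngII, with a log2 fold change of 0.22 and an adjusted p of 0.0945. Rplp0, which anchors both, had 539 ± 46.1 and 491 ± 35.3 FPKM (SD, n = 5 each), with a log2 fold change of −0.13 and an adjusted p of 0.346.

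Rpl15 (chr14:18267823-18271391, minus strand), another gene linked to Diamond-Blackfan anemia, was the member with the most even values of the 9, with a CV of 6.36%. It had 100.3, 111, 97.2, 90.9 and 96.5 FPKM in Control, 127, 114, 126, 131 and 114 FPKM in AngII and 98.8, 93.3, 98.2, 103 and 106 FPKM in AngII+QDG. All AngII mice were above all mice of the other groups. The log2 fold change was 0.30 in AngII vs. Control (standard error 0.06, adjusted p = 0.0174 from limma) and 0.01 in AngII+QDG vs. Control (95% interval −0.12 to 0.14).

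The other large-subunit genes called were Rpl31 (chr1:39367842-39371911), Rpl28 (chr7:4792874-4795066) and Rpl36 (chr17:56613416-56614243), all on the plus strand. Rpl31, which sits near the exit of the peptide tunnel, rose from a mean of 164 ± 11.3 FPKM to a mean of 213 ± 14.7 FPKM (log2 fold change 0.37, limma adjusted p = 0.0202). For Rpl28 the means were 169 ± 7.95 and 215 ± 12.8 FPKM (0.35, adjusted p = 0.0228), and for Rpl36 they were 238 ± 17.3 and 293 ± 13.2 FPKM (0.30, adjusted p = 0.0237), each SD with n = 5. In each of the 3 genes every AngII mouse was above every Control mouse. Rpl28 and Rpl36 were not called with median scaling (adjusted p = 0.0551 and 0.0564 from limma), and each was called in 11 of 15 fits with 1 mouse left out.

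**Figure D1:**
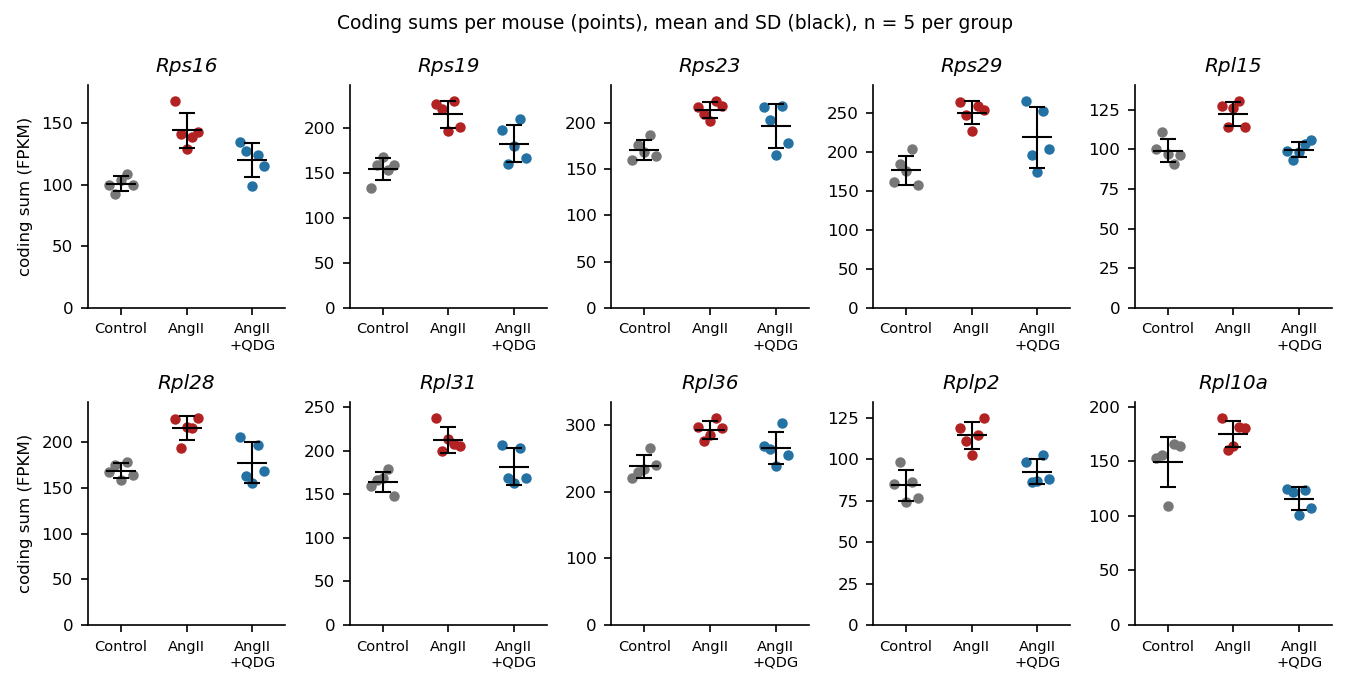
Coding sums in FPKM (vertical axes from 0) of the 9 genes called in AngII vs. Control and of Rpl10a, with 1 point per mouse and the mean and SD of each group in black. In the 9 genes the AngII mice sit above the Control mice with no overlap, and in Rpl10a the 5 AngII+QDG mice, at 101 to 125 FPKM, sit below the 5 AngII mice, at 161 to 189.6 FPKM.

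Just outside the threshold lay Rps3, with 163 ± 5.07 FPKM in Control and 189 ± 8.82 FPKM in AngII (log2 fold change 0.21, adjusted p = 0.053), and Rpl38, with 114 to 180.4 FPKM in Control and 186 to 217 FPKM in AngII (0.56, adjusted p = 0.0619), both from limma. In both genes the groups did not overlap. At the other end were genes whose intervals were narrow and included 0. Rpl4 had the smallest standard error of all members, with 327 to 352 FPKM in Control, 323 to 366 FPKM in AngII and 336 to 379.5 FPKM in AngII+QDG, and its log2 fold change in AngII vs. Control was 0.01 with a 95% interval of −0.09 to 0.10. Rpsa, the small-subunit protein also known as a laminin receptor, had 224 ± 17.4, 237 ± 20.5 and 239 ± 25.9 FPKM in the 3 groups, with an interval of −0.09 to 0.25 in AngII vs. Control.

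Seen by subunit, 4 of 33 small-subunit genes were called higher in AngII vs. Control and 21 of 33 (63.6%) had a positive log2 fold change (median 0.08), where 60.9% of all coding sums did. In the large subunit, 5 of 49 were called higher and 43 of 49 (87.8%) were positive (median 0.17). Both medians stayed positive under median scaling (0.04 and 0.12) and under quantile normalization (0.02 and 0.11). The medians of all coding sums were 0.015 and 0.004 under these settings, so the small subunit lay close to them. Of the 17 Diamond-Blackfan genes, Rps19, Rps29, Rpl15 and Rpl31 were called higher and 0 lower (3.01% and 0.768% of all coding sums), and the median was 0.13. The 5S particle genes Rpl5 and Rpl11, whose proteins bind Mdm2, had log2 fold changes of 0.18 and 0.23, and neither was called.

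The comparison of AngII+QDG vs. AngII asked which of the values differed under QDG. In AngII+QDG, 2 of 83 members were lower, Rpl10a and Rpl15, and 0 were higher. Over all 10806 coding sums, 1.17% were called lower and 0.379% higher, against 2.41% and 0 of the members. At an unadjusted p under 0.05, 16 of 83 were lower (19.3%, against 9.49% of all) and 2 of 83 were higher (2.41%, against 6.28% of all). In 3 of 83, Rpl10a, Rpl15 and Rpl36al, every AngII+QDG mouse was below every AngII mouse (3.21% of all coding sums), and in 0 every one was above (1.7% of all). The median log2 fold change was −0.12 over the members and −0.004 over all coding sums. Rpl10a was called in each leave-one-out fit, whereas the count fell to 1 without AngII replicate 1, 2, 3 or 4 and without AngII+QDG replicate 2, 3 or 4. Under quantile normalization the median of the members was −0.04. This comparison shares its 5 AngII mice with the former one, so the values of the comparisons are not independent.

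Rpl10a (chr17:28328471-28331033, plus strand), a protein of the mobile L1 stalk that handles the outgoing tRNA, had 189.6, 161, 164, 181 and 180.4 FPKM in AngII and 125, 122, 101, 123 and 108 FPKM in AngII+QDG. Its Control mice had 153, 156, 109.6, 166 and 164 FPKM. The AngII+QDG mice were below all AngII mice, and below all Control mice but 1. The log2 fold change was −0.60 in AngII+QDG vs. AngII (standard error 0.10, adjusted p = 0.0188 from limma), −0.36 in AngII+QDG vs. Control (adjusted p = 0.178) and 0.24 in AngII vs. Control (adjusted p = 0.226). Rpl15, whose values were given above, had a log2 fold change of −0.29 in AngII+QDG vs. AngII (standard error 0.06, adjusted p = 0.0302).

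The members next in order were not called. Rplp2 had a log2 fold change of −0.30 (adjusted p = 0.0738), Rpl28 of −0.28 (adjusted p = 0.0746), Rpl36al of −0.31 (adjusted p = 0.0963) and Rpl39 of −0.41 (adjusted p = 0.108), all from limma. In Rpl36al the AngII mice had 181 to 193 FPKM and the AngII+QDG mice 125 to 169.9 FPKM. Of the stalk genes, Rplp0 had 491 ± 35.3 FPKM in AngII and 569 ± 48.1 FPKM in AngII+QDG (SD, n = 5 each), with a log2 fold change of 0.21 and an adjusted p of 0.177, opposite in sign to Rplp2. In AngII+QDG vs. Control 0 of 83 members were called in either direction by limma, where 0.0463% of all coding sums were called higher and 0.00925% lower, and at an unadjusted p under 0.05, 8 of 83 were higher (9.35% of all) and 1 was lower (4.15% of all). No other tool was run on this comparison.

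**Figure D2:**
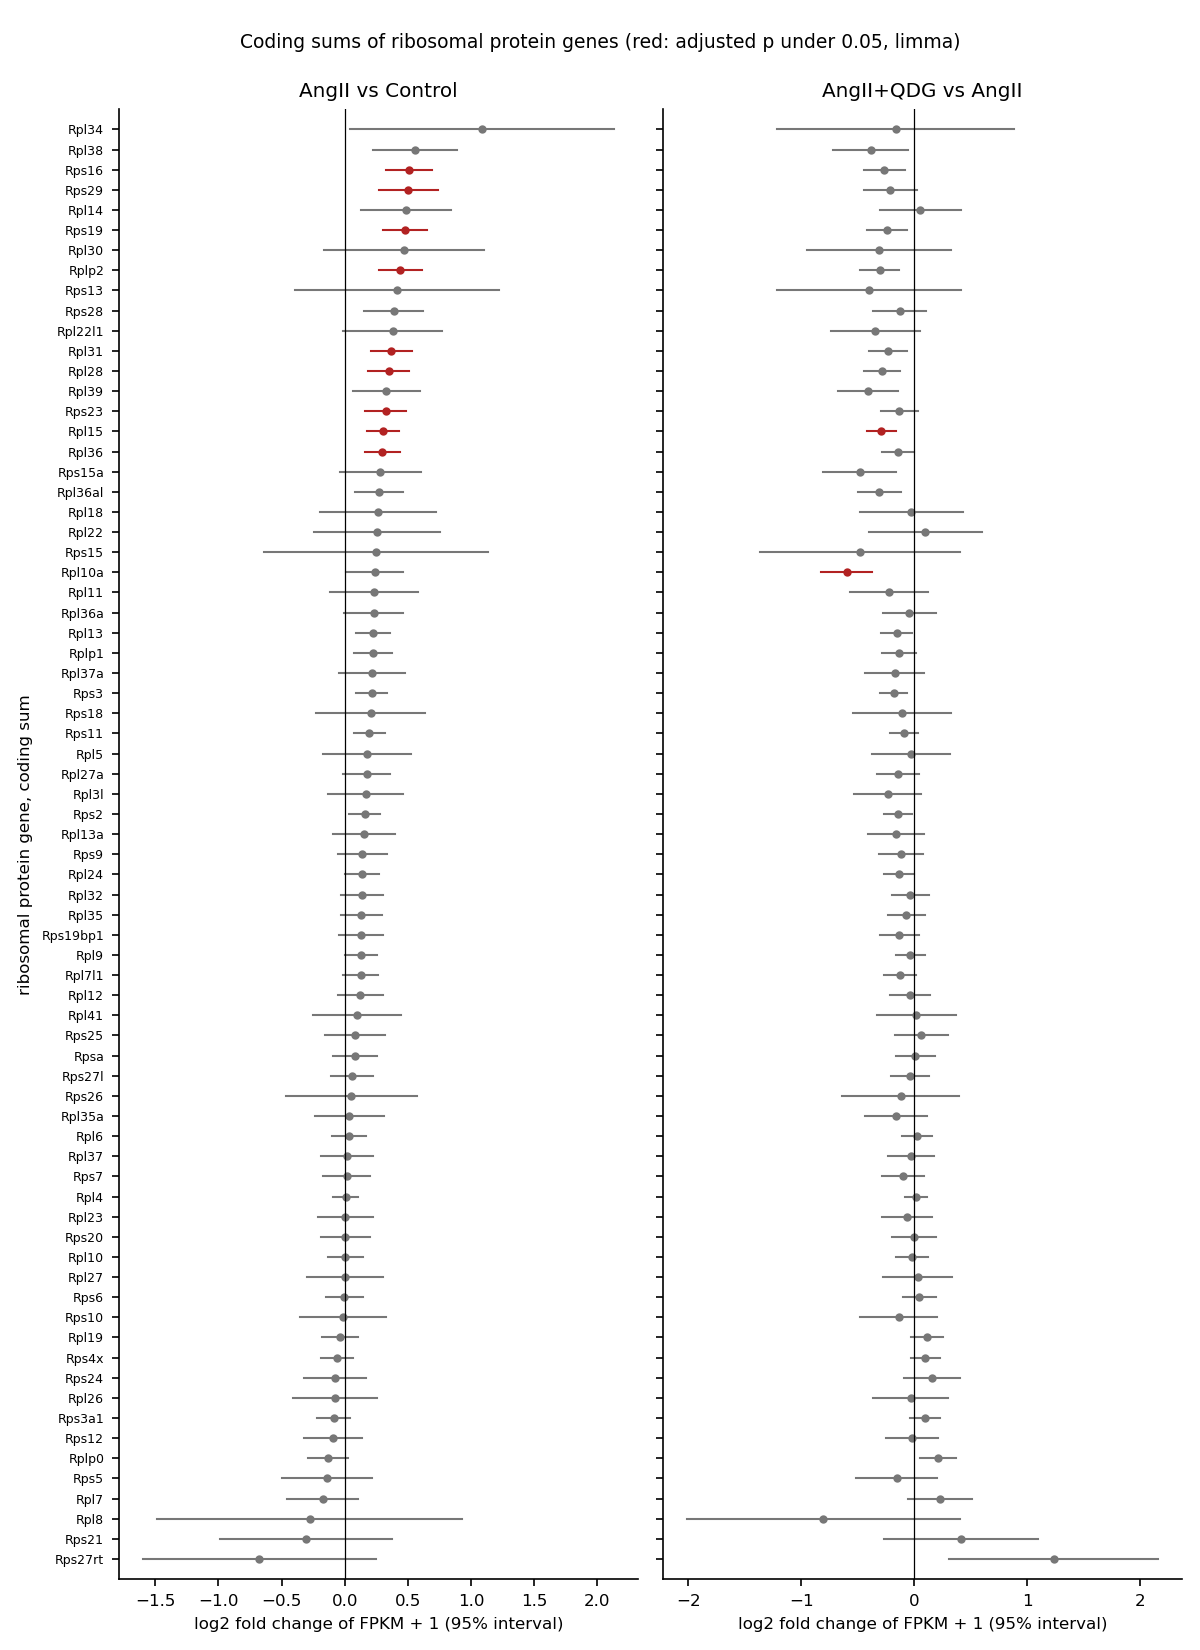
Log2 fold changes of FPKM + 1 with 95% intervals (horizontal axes) for 72 members in both comparisons, ordered by the value in AngII vs. Control, with adjusted p under 0.05 in red. Left out are 9 members whose CV was over 50%, as their intervals run far past the axis, and 2 that are not reported here, and the red points are the 9 genes above 0 on the left and Rpl10a and Rpl15 below 0 on the right.

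Other genes of the translation machinery were taken from lists and read in the same way. Of the ribosome parts that the symbols do not catch, Fau and Rack1 had coding sums of 297 and 158 FPKM in Control and 354 and 145 FPKM in AngII, and neither was called. Of 29 measured ribosome assembly genes, 4 were called higher in AngII vs. Control and 0 lower (3.01% and 0.768% of all coding sums). These were Bysl (log2 fold change 0.42, adjusted p = 0.0172), Eif6 (0.36, adjusted p = 0.0149), which keeps the free large subunit from joining, Rrs1 (0.48, adjusted p = 0.0213) and the rRNA methyltransferase Nop2 (0.31, adjusted p = 0.0265). Bysl (−0.45, adjusted p = 0.0214) and Eif6 (−0.30, adjusted p = 0.046) were also the 2 of 29 called lower in AngII+QDG vs. AngII (1.17% of all coding sums).

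The other TOP mRNAs encode translation factors and helpers. Of 17, 5 had a positive log2 fold change in AngII vs. Control (60.9% of all coding sums), the median was −0.09, and 2 were called lower and 1 higher (0.768% and 3.01% of all). Naca, a chaperone at the ribosome exit, fell from 204 ± 10.6 to 170.0 ± 11.1 FPKM (−0.26, adjusted p = 0.0219 from limma), and Npm1, a nucleolar protein, fell from 60.1 ± 7.92 to 44.9 ± 3.09 FPKM (−0.40, adjusted p = 0.0307). Eef1g was called higher (0.20, adjusted p = 0.0375). The median over the 17 in AngII+QDG vs. AngII was 0.18, 12 of 17 were positive (49.2% of all coding sums), and Eif4b was called higher (0.42, adjusted p = 0.0337 from limma), as were 0.379% of all. The difference between these mRNAs and the ribosomal protein mRNAs was not tested. Of the regulators, 0 of 8 measured genes were called in either comparison, among them Larp1 and the kinase gene Rps6kb1. Of 7 snoRNA host RNAs, summed over all biotypes, 1 was called higher in AngII, Snhg5 (0.66, adjusted p = 0.0315 from limma), as were 4.95% of all such sums.

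**Figure D3:**
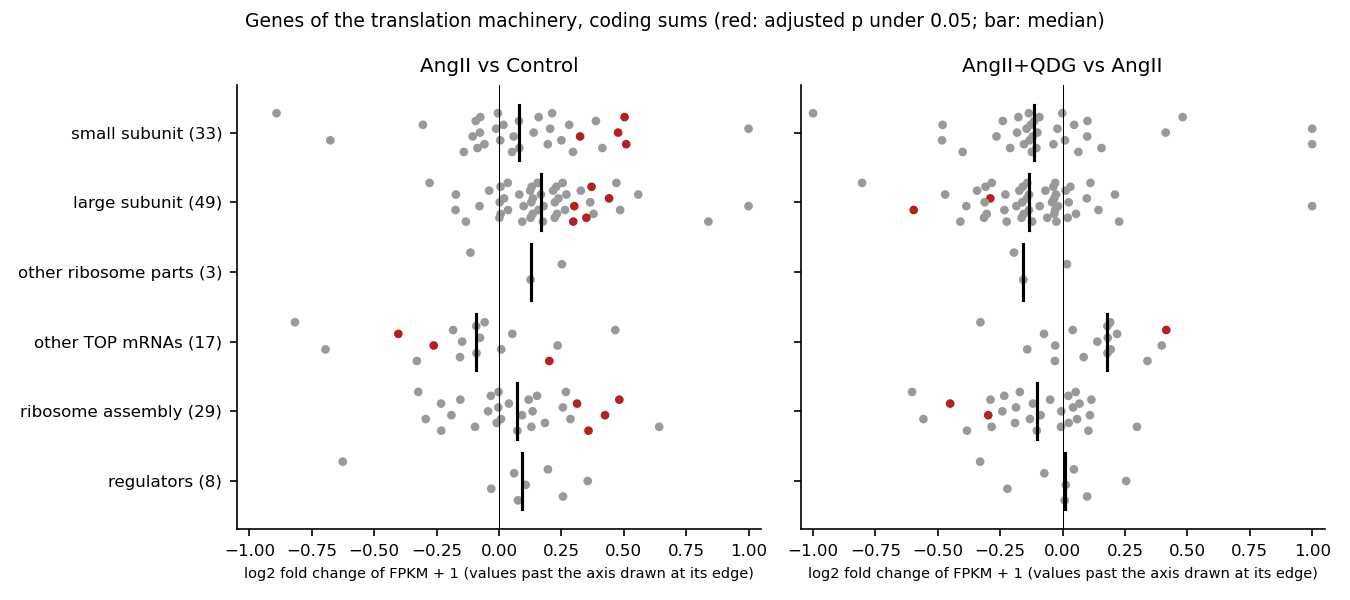
Log2 fold changes of FPKM + 1 (horizontal axes) of the coding sums by list, with 1 point per gene, the median as a black bar and adjusted p under 0.05 in red. In AngII vs. Control the medians are 0.08 and 0.17 for the small and large subunit and −0.09 for the other TOP mRNAs. Values past 1 in size are drawn at the edge of the axis.

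Length was a feature that the rule did not use. Ribosomal protein mRNAs are short, and in 56 of 83 members the most abundant coding transcript had less than 1000 bases. Another 799 coding sums outside the family shared that property. Of these, 5.38% were called higher and 1.13% lower in AngII vs. Control, with a median log2 fold change of 0.11. In AngII+QDG vs. AngII, 2% were called lower and 0 higher, with a median of −0.07. The part of transcript length in the results of the members was not tested.

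The starts of the genes that rose were read for runs of C or T, the bases of a TOP tract. A run anywhere in the window was counted, so it need not begin at the start as a TOP tract does. RefSeq's table for GRCm38.p6 gave 75 promoters of 63 members. Rps29 and Rpl36 had none in it, and Rps19 had several starts. Each line gives 10 bases before and 20 bases from the annotated start onward, on the strand of the gene, and capitals mark runs of at least 6 bases that are only C or T.
Rpl15 (chr14:18270967-18270996, minus strand): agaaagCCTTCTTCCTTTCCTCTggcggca
Rpl28 (chr7:4792955-4792984, plus strand): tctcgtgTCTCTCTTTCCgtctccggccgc
Rplp2 (chr7:141447641-141447670, plus strand): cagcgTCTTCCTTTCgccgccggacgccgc
Rpl31 (chr1:39367841-39367870, plus strand): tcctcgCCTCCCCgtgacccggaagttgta
Rps23 (chr13:90923112-90923141, plus strand): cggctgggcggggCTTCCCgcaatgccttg
Rps16 (chr7:28350679-28350708, plus strand): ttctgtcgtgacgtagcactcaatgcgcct
Such a run was present in 5 of these 6 windows and absent at this start of Rps16, and 1 of the 3 starts of Rps19 had it. It was found in 39 of the 75 member promoters (52%) and in 28.7% of all 32851 promoters of the table. The letters CCGGAAGT, which are bound by ETS factors, were searched on both strands of the whole 300 bases and were present in 12 of 75 member promoters (16%) and in 3.89% of all. Annotated starts can be off by some bases, and a match is not a measured binding site.

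The non-coding transcripts were examined apart. Of the 65 members with non-coding transcripts in all files, 61 passed the filter, and in AngII vs. Control 2 of 61 non-coding sums were called higher and 0 lower. Over all 4406 non-coding sums 4.93% were called higher and 0.409% lower, so the share of the members (3.28%) was not above the background. Rpl10a had a non-coding sum of 18.5, 19.7, 19.9, 18.8 and 19.1 FPKM in Control, 25.7, 30.6, 37.7, 26.8 and 26.2 FPKM in AngII and 23.5, 20.3, 20.3, 18.7 and 21.9 FPKM in AngII+QDG. The AngII mice were above all mice of the other groups (log2 fold change 0.58 in AngII vs. Control, standard error 0.12, adjusted p = 0.0209 from limma, and −0.46 in AngII+QDG vs. AngII, adjusted p = 0.119). Rps3, whose protein binds at the mRNA entry, had a non-coding sum of 1.28 ± 0.230 FPKM in Control and 2.42 ± 0.408 FPKM in AngII (SD, n = 5 each; log2 fold change 0.58, adjusted p = 0.0224). For AngII+QDG vs. AngII 0 of 61 were called by limma in either direction (0.0454% of all higher, 0.0908% lower), and at an unadjusted p under 0.05, 3 of 61 were higher (3.09% of all) and 4 lower (8.92% of all).

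The non-coding sums of the series moved up as a whole, with a median log2 fold change of 0.23 over all 4406 and 0.21 over the members. Under median scaling these medians became −0.05 and −0.08, and the calls of Rpl10a and Rps3 were lost.

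Among single transcripts, 158 of 176 coding and 120 of 161 non-coding transcripts of the members passed the filter, and 28812 transcripts were tested in all. In AngII vs. Control 2 coding transcripts, Rps16-201 and Rplp2-201, and 2 non-coding ones, Rpl6-207 and Rpl10a-206, were called higher at an adjusted p under 0.05, and 0 were called lower, against 0.531% and 0.16% of all transcripts. The threshold of the study was a fold change of at least 2 with a p under 0.05, and the p was taken here as unadjusted. By that rule 8 of 158 coding transcripts were higher and 0 lower, and 4 of 120 non-coding transcripts were higher and 1 lower, against 1.93% and 0.954% of all. In AngII+QDG vs. AngII, 0 member transcripts were called by limma at an adjusted p under 0.05 (0.0278% of all transcripts higher, 0.0694% lower), while at an unadjusted p under 0.05, 5 of 158 coding ones were higher and 22 lower, and 6 of 120 non-coding ones were higher and 11 lower (4.4% of all higher, 6.9% lower). By the rule of the study 4 coding transcripts were lower and 1 was higher, and 1 non-coding transcript was lower (1.33% of all lower, 0.902% higher).

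The retained-intron transcript Rpl10a-206 (chr17:28328600-28331028) had 12.5 ± 1.77 FPKM in Control, 19.4 ± 3.57 FPKM in AngII and 14.7 ± 1.32 FPKM in AngII+QDG, with no overlap between AngII and either other group (log2 fold change 0.59 in AngII vs. Control, adjusted p = 0.0462 from limma). The retained-intron transcript Rpl6-207 had 0.570 ± 0.160, 1.59 ± 0.404 and 0.872 ± 0.273 FPKM (SD, n = 5 each), with a log2 fold change of 0.71 and an adjusted p of 0.0395. This is a low level, and the pseudocount of 1 makes its fold change smaller. Its Control and AngII+QDG means lay below 1 FPKM, so Rpl6-207 passed the filter mainly through the AngII mice, where it was high. Its call is therefore not independent of the filter. With median scaling none of Rpl10a-206, Rpl6-207, Rps16-201 and Rplp2-201 was called. With 1 mouse left out, Rpl10a-206 was called in 1 of 15 fits, Rpl6-207 in 6, Rplp2-201 in 9 and Rps16-201 in 11.

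The transcripts that passed the fold change of 2 were mostly minor or uneven ones. Rpl38-202 was at 4.90, 0, 2.74, 3.92 and 0 FPKM in Control and at 3.18, 12.4, 13.3, 29.1 and 15.4 FPKM in AngII (log2 fold change 2.37, adjusted p = 0.0738 from limma), and Rpl38-203 was at 9.98 ± 6.64 and 23.4 ± 12.3 FPKM (1.30, adjusted p = 0.181). Rpl24-204, a processed transcript, was the one that was lower, with 28.3 to 50.4 FPKM in 3 Control mice, 5.43 and 7.38 FPKM in the other 2 and 4.79 to 6.71 FPKM in AngII (−1.65, adjusted p = 0.182). In Rpl24-204 the difference came from 3 of 5 Control mice. Rpl4-203, a retained-intron transcript, was at 0.421 ± 0.490 FPKM in Control and 3.47 ± 3.44 FPKM in AngII (1.34, adjusted p = 0.171).

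Rpl26-202 was at 3.24 to 5.97 FPKM in AngII and 0.890 to 2.08 FPKM in AngII+QDG with no overlap (log2 fold change −1.29 in AngII+QDG vs. AngII, adjusted p = 0.132 from limma). Its gene's coding sum was 382 and 371 FPKM in the same groups, so this transcript was a small share of it. Rps15a-201 was listed at 0 in all 5 AngII+QDG mice and at 0.257 to 19.2 FPKM in AngII. Its log2 fold change was −2.59 in AngII+QDG vs. AngII (adjusted p = 0.22 from limma) and 1.76 in AngII vs. Control (adjusted p = 0.308). Rps15a-201 passed the filter only through mice of the other groups, and it was kept in only 10 of the fits with 1 mouse left out. Rpl29-206 was at 2.82 ± 2.31 FPKM in AngII and 0.239 ± 0.501 FPKM in AngII+QDG (SD, n = 5 each; −1.43, adjusted p = 0.315).

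Single transcripts of some members switched between high and absent from mouse to mouse within a group. Of 82 member transcripts above 100 FPKM in at least 1 mouse, 11 transcripts of 10 genes dropped below 1 FPKM in a second mouse of that group. Across the series this was so for 128 of 991, a similar share, so the switching was not particular to the members. Among the highest were Rpl8-201 (up to 392.2 FPKM), Rpl23a-201 (383), Rps27-201 (310.4), Rpl34-202 (216), Rpl34-205 (184), the retained-intron transcript Rps26-202 (165) and Rps14-201 (150.4). The pairs described next were chosen after their values had been seen.

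Rps26 shows this within 1 gene. Its coding transcript Rps26-201 was at 209, 153, 246, 241 and 209.7 FPKM in Control, 240.3, 250.5, 128, 294 and 211 FPKM in AngII and 266, 237, 235, 119 and 178 FPKM in AngII+QDG. The retained-intron transcript Rps26-202 was at 38.0, 106, 9.19, 21.8 and 21.5 FPKM, 33.6, 0.571, 119.8, 0.380 and 37.8 FPKM, and 6.17, 13.2, 0.268, 165 and 73.7 FPKM in the same mice. In each group the mouse with the least of the coding transcript had the most of the retained-intron transcript. Over the 15 mice Pearson's r between them was −0.94, a description of values that share library and depth. The CV within groups was 25.0% for Rps26-201 and 125% for Rps26-202 but 6.95% for their sum, which was 251 ± 12.5, 263 ± 20.8 and 259 ± 19.3 FPKM in the 3 groups (SD, n = 5 each).

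In Rpl3 the coding and the retained-intron transcript were also inversely related, but the mouse lowest in the former was not the highest in the latter in any group. Rpl3-201 ranged from 9.23 to 148 FPKM and the retained-intron transcript Rpl3-204 from 15.3 to 92.9 FPKM (r = −0.82), with a CV of 67.6% for Rpl3-201 and 21.1% for the sum. The coding sum of Rpl3 had an interval from −1.27 to 1.59 in AngII vs. Control, and its sum over all biotypes was not called either (log2 fold change 0.08). Of the 65 members with non-coding transcripts, 29 had a smaller SD within groups when all biotypes were summed. When all biotypes were summed, 14 of 83 members were called higher in AngII vs. Control, the 9 named above together with Rpl13, Rpl38, Rps2, Rps3 and Rps28, and 0 were called lower, against 4.95% and 0.995% of all such sums.

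In Rps27 the partner was another gene. Rps27rt is a retrogene, a copy of the Rps27 mRNA inserted elsewhere and here annotated as protein-coding. Rps27-201 (chr3:90212671-90213651, minus strand) has 4 coding exons and Rps27rt-201 (chr9:114982366-114982739, minus strand) has 1. In the GENCODE transcripts 341 of 345 bases of Rps27-201 aligned to Rps27rt-201 with 0 mismatches, and their coding sequences of 252 bases without the stop codon were identical. The shared sequence is printed because no read within it can tell the genes apart, and capitals mark the 2 bases on either side of each exon junction of Rps27.
Rps27 and Rps27rt: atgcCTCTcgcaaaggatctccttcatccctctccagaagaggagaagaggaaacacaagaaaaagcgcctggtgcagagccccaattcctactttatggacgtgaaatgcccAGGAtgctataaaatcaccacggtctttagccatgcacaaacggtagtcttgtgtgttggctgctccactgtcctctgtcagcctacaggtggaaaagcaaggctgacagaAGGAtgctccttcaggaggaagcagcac

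Rps27-201 was at 136, 310.0, 264, 223 and 0 FPKM in Control, 204, 214, 0, 310.4 and 285 FPKM in AngII and 238, 171, 0, 0 and 0 FPKM in AngII+QDG. In the same mice Rps27rt-201 was at 271, 106, 113, 132 and 235 FPKM, 153, 108, 210.4, 61.0 and 44.2 FPKM, and 122, 197, 281, 364 and 287 FPKM. Every mouse with Rps27-201 listed at 0 had Rps27rt-201 above 200 FPKM. The correlation over the 15 mice was −0.89. Their sum was 358 ± 72.9 FPKM in Control, 318 ± 63.6 FPKM in AngII and 332 ± 44.2 FPKM in AngII+QDG (SD, n = 5 each), so the groups overlapped. Rps27rt-201 alone met the study's threshold in AngII+QDG vs. AngII, with a log2 fold change of 1.23 and an adjusted p of 0.281 from limma. Since the coding sequences of both genes are identical, this value is uncertain, and how reads were assigned to them is not given in the sources used here.

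Rps27a, which encodes a fusion of ubiquitin and a small-subunit protein, stood in the same relation to its processed pseudogene Rps27a-ps2. Rps27a-201 was listed at 0 in 4 of 15 mice and reached 105 FPKM, whereas the pseudogene was at 22.9 to 131 FPKM. Over all 467 bases of the pseudogene transcript the sequences differed at 1 position, A507G, counted from the first base of Rps27a-201 and given from gene to pseudogene. The 30 bases around it are shown with the base that differs in capitals.
Rps27a-201 (chr11:29545962-29545991, minus strand): gtgtccttctgatgaAtgtggtgctggagt
Rps27a-ps2 (chr9:83410019-83410048, plus strand): gtgtccttctgatgaGtgtggtgctggagt
The CV within groups was 170.1% for Rps27a-201 and 12.9% for the sum of both, which was 124 ± 18.2, 128 ± 13.1 and 115 ± 15.6 FPKM in Control, AngII and AngII+QDG (SD, n = 5 each). The lowest value of the pseudogene, 22.9 FPKM, was in the mouse with the highest value of the gene.

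Rpl23a-201 was listed at 0 in 6 of 15 mice and reached 383 FPKM, with 131, 379, 383, 374 and 105 FPKM in AngII+QDG. An assembled transcript without a gene name, MERGE.4298.3, was at 107 to 170.2 FPKM in the 6 mice without Rpl23a-201 (r = −0.93 over the 15 mice). Their sum stayed uneven, with a CV of 42.0%. It was 192 ± 96.1 FPKM in Control, 200 ± 88.6 FPKM in AngII and 302 ± 105.6 FPKM in AngII+QDG (SD, n = 5 each). The log2 fold change of the coding sum in AngII+QDG vs. AngII was 4.62 with a 95% interval of −0.03 to 9.26 (adjusted p = 0.319 from limma). In AngII+QDG vs. Control it was 4.70, the largest difference among the members, with an interval of 0.06 to 9.34 and an adjusted p of 0.365 from limma (unadjusted p = 0.0476). The groups overlapped in both comparisons.

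**Figure D4:**
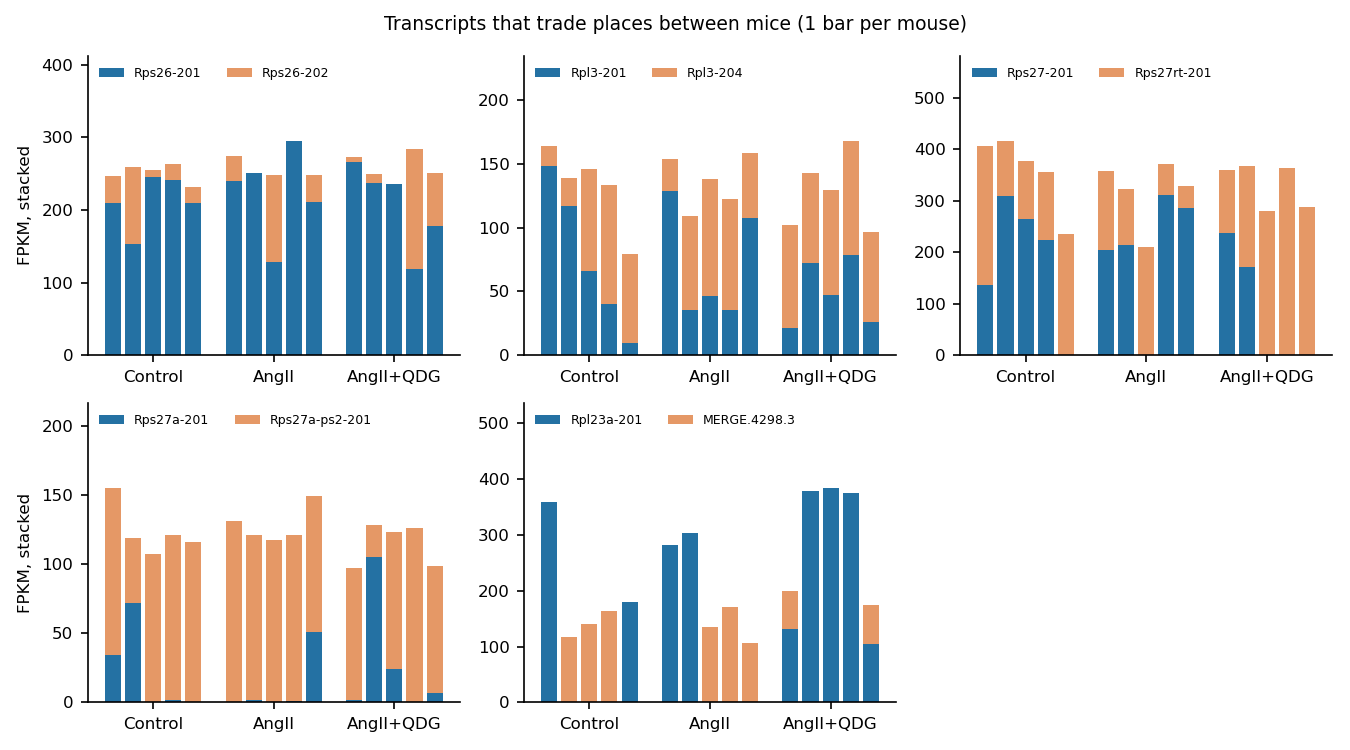
FPKM of pairs of transcripts stacked in 1 bar per mouse (vertical axes), 5 bars per group, with the member's coding transcript in blue and its partner in orange. The blue parts vary from mouse to mouse within each group, and the full bars of Rps26 and Rps27a differ less, with CVs of 6.95% and 12.9%.

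In all, 93 transcripts of named pseudogenes of 43 members and of Rpl7a were listed, and they summed to 1840 to 2331 FPKM per mouse. For Rpl21 and Rpl17 the copies held most of the signal, since the mean rose from 5.94 to 124 FPKM and from 65.2 to 446.5 FPKM with all biotypes and copies added. Rpl21 had a coding sum of 0.504 to 14.8 FPKM and a CV of 87.6%, which became 21.4% with all biotypes and the named pseudogenes added, and for Rpl17 the CV went from 52.4% to 6.22%. Of the 43 members, 10 had a smaller SD within groups with the pseudogenes added. With named pseudogenes added to the sums over all biotypes, an alternative chosen after seeing the data, 12 of 83 members were called higher in AngII vs. Control and 0 lower, against 4.99% and 0.998% of all such sums, and Rpl15 was not called (adjusted p = 0.07 from limma).

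**Figure D5:**
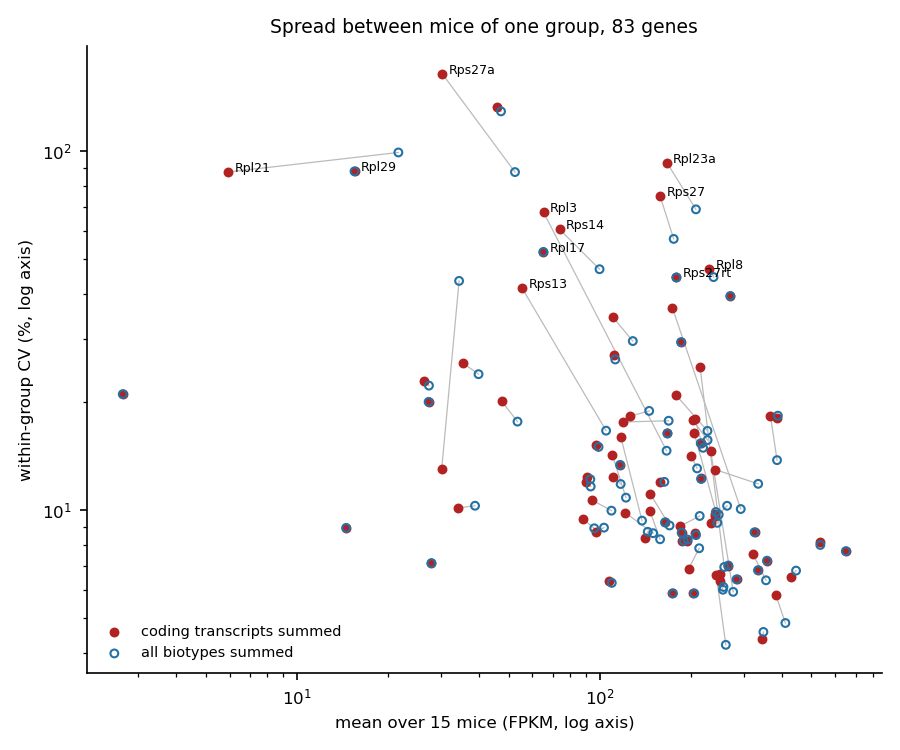
CV within groups in percent against the mean in FPKM, both on log axes, for the coding sum (red) and the sum over all biotypes (blue) of each of the 83 members, joined by a line. Genes named in the plot have a coding sum with a CV above 40%, and in Rpl3 and Rps13 it falls from 67.6% and 41.7% to 14.6% and 16.7% when all biotypes are summed.

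The paralogs, which can replace a ribosomal protein in some tissues, were set beside their parents. Rpl36al had 155 ± 19.1, 186 ± 5.11 and 151 ± 17.4 FPKM in Control, AngII and AngII+QDG, above its parent Rpl36a with 101 ± 14.6, 118 ± 12.9 and 114 ± 13.6 FPKM. Rps27l, a target of p53, had 202 ± 22.8, 210.2 ± 16.9 and 205 ± 11.6 FPKM, with a log2 fold change of 0.06 in AngII vs. Control (95% interval −0.11 to 0.23). Rpl22l1 had 23.9 ± 7.34, 31.0 ± 6.53 and 24.0 ± 3.65 FPKM, and its parent Rpl22 had 42.7 ± 14.4, 48.0 ± 4.50 and 51.6 ± 6.75 FPKM. Rpl7l1 had 26.9 ± 1.76, 29.6 ± 2.90 and 27.0 ± 0.505 FPKM beside 237 ± 20.8, 213 ± 44.0 and 247 ± 33.2 FPKM of Rpl7 (SD, n = 5 each). Rpl3l was at 1.84 to 3.98 FPKM in all mice. None of these 5 paralogs was called by limma in any of the 3 comparisons, the smallest adjusted p being 0.0963 for Rpl36al in AngII+QDG vs. AngII.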

How the data were processed

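Kidney RNA was sequenced in 15 mice. Per the labels, libraries were made after depletion of ribosomal RNA, and the study's methods also name a kit for isolation of poly(A) mRNA. The authors deposited a table per mouse that gives an FPKM value for each transcript, either annotated (Ensembl) or assembled by them (MERGE). The unit was inferred here from values that are whole multiples after multiplication by transcript length (98.45% to 98.66% of values under 200 reads). The submitters' processing notes name limma and mm10 (GRCm38), and the aligner and counter are not given in the sources used here. Transcripts were matched by identifier to GENCODE M21, and FPKM was summed per gene over protein-coding transcripts and, apart, over all other biotypes. Only transcripts in all 15 files were used. The tables of the Control mice listed 41477 transcripts each, and those of the AngII and AngII+QDG mice listed 42310 each. Among member transcripts left out for this reason, 3 were listed for Control mice alone. Another 14 were listed for AngII and AngII+QDG mice but not for Control mice. The listed set thus differed along with the comparisons to Control, and its part in the values was not tested.

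Differences were tested with limma 3.58.1 (R 4.3.3) on log2(FPKM + 1). A single model held all 15 mice, with a mean per group, an intensity trend and 12 residual degrees of freedom. Features needed 1 FPKM or more in 5 or more mice. p-values were adjusted by Benjamini-Hochberg over all features of a table, and a feature was called at an adjusted p under 0.05. Fold changes are on the log2(FPKM + 1) scale, which understates changes of low values. Named genes were those with an adjusted p under 0.05 in AngII vs. Control or AngII+QDG vs. AngII (or the 6 with the smallest p), the transcripts called by either threshold, the highest and lowest levels, the stalk genes and Rpsa, paralogs, transcripts with extreme spread within a group and the smallest standard errors. Members and lists were chosen with earlier results of these data known. The alternatives were other pseudocounts, filters, scalings, sums and thresholds, a model of 2 groups, no trend and each mouse left out in turn. The replicate numbers only name the mice. Promoter sequences came from RefSeq and transcript sequences from GENCODE. Some members and transcripts are not reported here.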

Additional observations from a re-analysis of the deposited data

Results flagged for a closer look

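In 96 groups of 5 mice (32 named genes in 3 groups), 6 coding sums had 1 mouse far from the other 4, where chance gives about 1 in 20 groups. Rpl10a was at 109.6 FPKM in 1 Control mouse and at 153 to 166 FPKM in the others. Rpl22 was at 17.7 FPKM in 1 Control mouse and at 45.0 to 53.5 FPKM in the others. Rpl22l1 was at 36.6 FPKM in 1 Control mouse against 18.5 to 23.5 FPKM. Rpsa was at 273 FPKM in 1 AngII mouse against 222 to 234 FPKM. Rpl4 was at 379.5 FPKM in 1 AngII+QDG mouse against 336 to 345 FPKM. Rps19bp1 was at 11.9 FPKM in 1 AngII+QDG mouse against 14.5 to 14.98 FPKM.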

How the results depend on the processing

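The groups held separate mice, assigned at random per the paper, so there were no pairs to analyse. The labels give no replicate numbers, and those used here only name the mice. None of the 9 and 2 coding sums and 4 transcripts called changed direction under any alternative run, whereas the uncalled 0.01 of Rpl15 in AngII+QDG vs. Control was −0.05 with median scaling and −0.01 with named pseudogenes added. The 9 coding sums higher in AngII vs. Control became 14 with all biotypes summed, 1 at the study's threshold (a member outside the 9), 23 at an unadjusted p under 0.05 and 4 to 11 with 1 mouse left out. With median scaling 6 of the 9 were called, and Rpl28, Rpl36 and Rps23 were not (adjusted p = 0.0551, 0.0564 and 0.0577 from limma). Rpl15 was not called in the model of 2 groups (0.0556) or with named pseudogenes added (0.07), and Rps16, Rps19 and Rplp2 were called at an adjusted p under 0.05 in all 12 other settings of sum, filter, scaling, pseudocount or model and all 15 fits without a mouse. The 2 coding sums lower in AngII+QDG vs. AngII became 1 with quantile normalization, 1 in the model of 2 groups, 1 without a trend and 1 with named pseudogenes added (chosen after seeing the data). At the study's threshold 0 were lower and 1 was higher, at an unadjusted p under 0.05 18 were called (16 lower, 2 higher), and 1 to 3 with 1 mouse left out. In AngII+QDG vs. Control the count of 0 became 1 (higher) at the study's threshold and 9 (8 higher, 1 lower) at an unadjusted p under 0.05.

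In AngII vs. Control the 2 non-coding sums became 1 with the filter of 5 FPKM, 0 with quantile normalization, 1 (lower) with median scaling and 1 to 3 with 1 mouse left out. The 2 coding transcripts became 6 (5 higher, 1 lower) with the filter of 5 FPKM, 4 with quantile normalization, 1 (lower) with median scaling, 0 without a trend and 0 to 4 with 1 mouse left out. The 2 non-coding transcripts became 1 with a pseudocount of 0.1 or 0.01, with no filter, in the model of 2 groups and without a trend, 1 (lower) with either scaling, and 0 to 3 with 1 mouse left out. In AngII+QDG vs. AngII the count of 0 coding transcripts became 1 with the filter of 5 FPKM, 1 in the model of 2 groups and 0 to 1 with 1 mouse left out. The causes were not tested. Median scaling moved the median log2 fold change of all transcripts in AngII vs. Control from 0.09 to −0.02. Values near 0 FPKM are limited by depth, and FPKM gives no counting interval.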
